A study of Mus musculus with 4 samples.

Results

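Axon guidance ligands and receptors were measured in 4 mouse pancreatic cancer cell lines, as a group of 51 genes. They were semaphorins and their plexin and neuropilin receptors, netrins and their receptors, Slits and Robos, and ephrins and Eph receptors. Not every gene of these families was included, and the group was chosen with earlier results of these data known. Of these 51 genes, 50 had a transcript cluster (the array's unit of measurement) that names a single gene, out of 19938 genes measured in all. The Eph receptor gene Ephb2 was not measured. The 2 genotypes were profiled with 2 lines each and 1 array per line. TPAC lines (K459 and TCPA18654) carry Ela-TGFa, Ptg1a+/CRE, Trp53fl/fl and p65fl/fl, and TPC lines (TPC20223 and TPC18645) carry the same alleles without p65fl/fl. All 4 lines therefore share the TGF-α transgene, which the acinar elastase promoter drives, the pancreatic Cre allele, which the study's methods name p48-Cre, and floxed Trp53, while floxed p65 (RelA) was carried by TPAC lines alone. Each line is a culture of digested tumour, no treatment was applied, and neither the age of the mice nor whether 1 mouse gave more than 1 line is stated in the sources used here.

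Axon guidance molecules steer growing nerve fibres. Semaphorins, netrins, Slits and ephrins are the cues, secreted or held on a cell surface, and plexins, neuropilins, Dcc and Unc5 proteins, Robos and Eph receptors read them and rearrange the actin cytoskeleton of the receiving cell. The same molecules act outside the nervous system, in blood vessel patterning, epithelial sorting and tumour cell migration, and genes of the Slit and Robo families are among those altered in human pancreatic cancer. In nerve invasion a tumour cell can be both a source of cues for nerves and a receiver of them.

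The values are log2 signals, so a difference of 1 is 2-fold. Signals of different genes were not compared, because each cluster has probes of its own. The arrays carry no detection call, and genes whose mean signal lay at or below the 40th percentile (a log2 signal of 6.96) are called dim. Of the 50 measured genes 8 were dim, against 7981 of all 19938 genes. The array medians over all clusters were 7.24 and 7.21 in the TPAC lines K459 and TCPA18654, and 7.26 and 7.19 in the TPC lines TPC20223 and TPC18645. Rela had log2 signals of 10.82 and 11.10 in the TPAC lines, against 10.70 and 11.12 in the TPC lines; its cluster can cover exons that a deletion leaves, so it does not check the genotype. TPC20223 stood apart in its cell markers: 6 of 10 epithelial markers had signals at least 2-fold below those of each other line, with Cdh1 (E-cadherin) at 12.62 in K459 and 12.68 in TCPA18654, against 6.96 in TPC20223 and 12.57 in TPC18645. K459 stood apart at the other end, with 6 of the 10 at least 2-fold above each other line, among them Epcam at 9.77 in K459 and 7.37 in TCPA18654, against 6.43 in TPC20223 and 6.82 in TPC18645. Of the fibroblast markers 3 of 9 were at least 2-fold higher in TPC20223 than in each other line, of the mesenchymal markers 1 of 8 and of the endothelial markers 2 of 7, among which Eng had a signal of 11.92 in TPC20223 while 6 of the 7 were dim. The log2 of the summed fibroblast marker signal was 12.38 and 12.07 in the TPAC lines K459 and TCPA18654, against 13.96 and 12.23 in the TPC lines TPC20223 and TPC18645. Bright markers weigh most in this sum, and Col1a1 had 13.02 in TPC20223. Of the 9 fibroblast markers 2 (Fap and Lum) were dim. Dcn was lower in TPC20223 than in TCPA18654 and TPC18645, and Thy1 was highest in K459. Leukocyte markers were dim in 6 of 7. In bulk RNA of a culture, fewer cells of a type and less RNA per cell cannot be told apart.

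The comparison of TPAC with TPC lines asks whether guidance genes differ between lines with and without floxed p65. No guidance gene was called between the genotypes: 0 of 50 met the limits of the limma fit, set at 0.05 for the adjusted p and at 0.58 for the size of the log2 difference, and 0% of all 19938 genes met them. The smallest adjusted p among the 50 genes was 0.989, and 1 of the 50 had an unadjusted p under 0.05, against 156 of all genes. The mean signal was higher in TPAC lines for 20 guidance genes and lower for 30. Over all 19938 genes, 10411 were higher and 9320 lower. The median log2 difference was -0.09 for guidance genes and 0.01 over all genes. Ligands were evenly divided, with 13 of 27 higher in TPAC and a median of -0.01, whereas 16 of 23 measured receptors were lower in TPAC, with a median of -0.19. Both TPAC lines lay above both TPC lines for 1 guidance gene, where 13.7% of all genes did so, and below both for 4, where 13.3% of all genes did so. With 2 lines against 2 there are 6 ways to assign the labels, and an exact two-sided permutation test cannot give a p below that of 2 assignments in 6.

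The 5 genes whose genotypes did not overlap were Sema4g, higher in TPAC, and Ephb6, Plxna1, Plxna3 and Efna3, lower in TPAC. Ephb6, an Eph receptor without kinase activity, had log2 signals of 7.90 in K459 and 8.02 in TCPA18654, against 8.74 in TPC20223 and 8.50 in TPC18645. The lines of each genotype were close together, and TPAC minus TPC was -0.66 on the log2 scale, standard error 0.16 (limma, unadjusted p = 0.0152, adjusted p = 0.989). Plxna1, a receptor subunit for class 3 semaphorins, had 10.47 in K459 and 10.99 in TCPA18654, against 11.73 in TPC20223 and 11.16 in TPC18645. Its means were 10.73 ± 0.37 in TPAC and 11.45 ± 0.40 in TPC (SD, n = 2 lines each), so that TPAC minus TPC was -0.71, standard error 0.31, and -0.43 without TPC20223 or -0.46 without K459. The gap between TCPA18654 and TPC18645 was small beside that between K459 and TPC20223. Sema4g, a membrane-bound semaphorin, had 8.89 in K459 and 8.40 in TCPA18654, against 6.80 in TPC20223 and 8.04 in TPC18645, and TPAC minus TPC was 1.23, standard error 0.50. Neither gene was called (limma adjusted p = 0.989 each), and the Sema4g difference was 0.60 without TPC20223. Nrp2 and Sema4b, also among the genes of smallest p, and Efna3 and Plxna3 are described with their families below. Efnb2, the ephrin that marks arteries, had 10.31 in K459 and 9.93 in TCPA18654, against 9.53 in TPC20223 and 10.09 in TPC18645, so the genotypes overlapped. Its log2 difference of 0.31 had a standard error of 0.28 and was 0.03 without TPC20223.

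**Figure D1:**
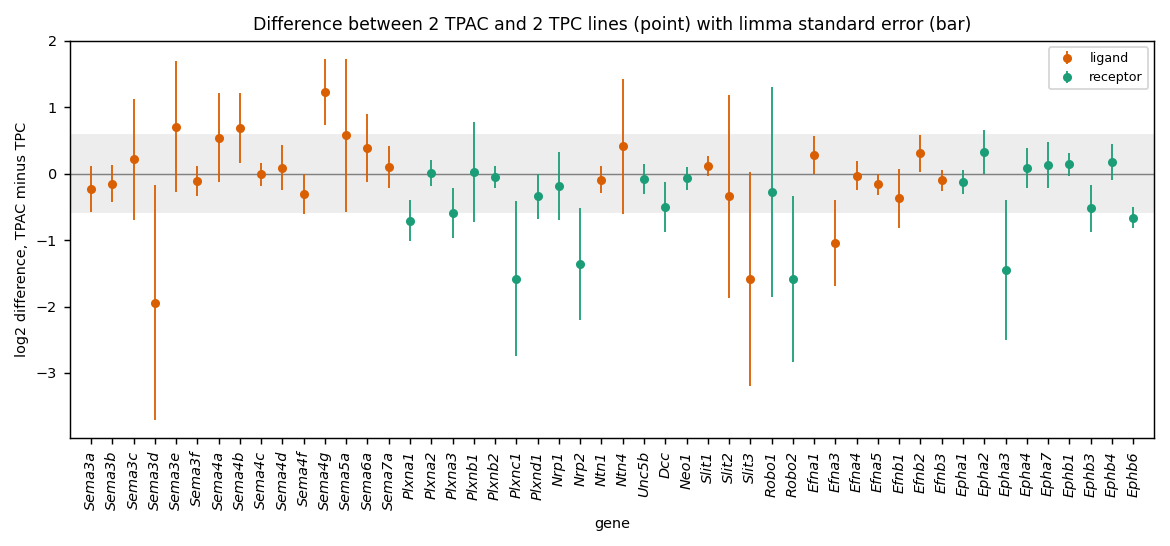
Log2 difference of each of the 50 measured genes between the mean of the 2 TPAC lines and the mean of the 2 TPC lines (point) with its limma standard error (bar), ligands in orange and receptors in green; the grey band spans -0.58 to 0.58. The largest differences run from -1.94 for Sema3d to 1.23 for Sema4g, and no gene was called.

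Guidance genes differed widely among the 4 lines, also within a genotype. The highest and the lowest of the 4 lines differed by a log2 signal of 1 or more for 24 of the 50 guidance genes (48%), where 15.9% of all genes differed as much. With dim genes left out these shares were 21 of 42 guidance genes (50%) and 21.2% of all 11957 such genes. The median span over the 4 lines was 0.93 for guidance genes and 0.40 for all genes. Plxnd1, with a span of 0.94, lay just below this limit and Dcc, with 1.04, just above. The guidance genes were chosen with earlier results of these data known, so these shares cannot be read as a trait of the families. Of 27 measured genes of the same families or their ligands outside the group, 7 (25.9%) spanned 1 or more, with a median span of 0.60. Counts of this kind rest on 1 array per line and have no test.

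Between K459 and TPC18645, 10 of 50 guidance genes were at least 2-fold apart, where 4.34% of all genes were, and between K459 and TPC20223 15 were, where 10.9% of all genes were. TCPA18654 and TPC20223 were at least 2-fold apart for 19, where 10.9% of all genes were. In contrast, TCPA18654 and TPC18645, which carry different genotypes, were so for 0 of 50, where 0.271% of all genes were. At this share of all genes, 0 of 50 does not set the guidance genes apart. Within genotypes the counts were 8 for K459 and TCPA18654, where 3.87% of all genes were apart, and 17 for TPC20223 and TPC18645, where 11.3% of all genes were. The 6 pairs share lines, so that the 3 pairs with TPC20223 are not separate evidence. The largest difference between TCPA18654 and TPC18645 was 0.86, for Slit2. The median size over the 50 genes was 0.16 for this pair, where it was 0.12 over all genes. It was 0.36 for K459 and TCPA18654, where it was 0.17 over all genes. For TPC20223 and TPC18645 it was 0.76, where it was 0.25 over all genes.

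**Figure D2:**
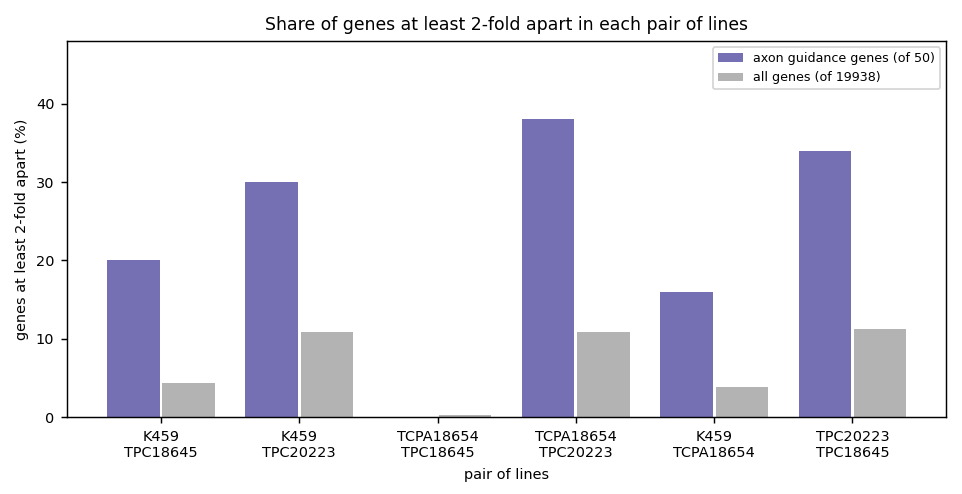
Share of the 50 guidance genes (purple) and of all 19938 genes (grey) whose log2 signals differ by 1 or more in each of the 6 pairs of lines, in percent. The pairs with TPC20223 hold 30% to 38% of guidance genes and 10.9% to 11.3% of all genes. TCPA18654 with TPC18645 holds 0% of guidance genes and 0.271% of all genes.

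Slits are secreted repellents of axons and Robos are their receptors, and this ligand-receptor system varied widely among the lines. Slit3 had log2 signals of 7.82 in K459 and 6.92 in TCPA18654, against 11.10 in TPC20223 and 6.81 in TPC18645. Slit2 had 9.17 in K459 and 7.67 in TCPA18654, against 10.70 in TPC20223 and 6.81 in TPC18645. Both Slits were thus highest in TPC20223 and next highest in K459, and their spans were 4.29 and 3.89. Robo1 had 9.28 in K459 and 6.55 in TCPA18654, against 9.84 in TPC20223 and 6.52 in TPC18645, which put K459 and TPC20223 on one side and TCPA18654 and TPC18645 on the other, a split across genotypes. Robo2 had 6.35 in K459 and 6.30 in TCPA18654, against 9.61 in TPC20223 and 6.20 in TPC18645, and was high in TPC20223 alone. For these 4 genes the genotypes overlapped, and the log2 differences between TPAC and TPC were -1.58 for Slit3, -0.34 for Slit2, -0.27 for Robo1 and -1.58 for Robo2, with standard errors of 1.61, 1.53, 1.58 and 1.25. Without TPC20223 they turned to 0.56, 1.61, 1.4 and 0.12. Slit1, which is dim, ran from 6.13 to 6.4 over the 4 lines.

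A start site window of Robo1 is shown because its signal split the lines across genotypes. Windows of 300 bases, 250 before to 50 after a transcript's start, came from RefSeq's table for GRCm38.p6, which holds 43 of the 51 genes in 56 windows. The 3 motifs below were searched on both strands and are in capitals: the E-box CACCTG or its complement CAGGTG, which Zeb and Snail factors bind, the AP-1 motif TGANTCA, and the consensus kB site, which NF-κB factors including p65 bind. An E-box lay in 8 of the 56 windows (14.3%), where 20.2% of all 32851 windows have one, an AP-1 motif in 2 (3.57%, against 7.81%) and a kB site in 6 (10.7%, against 8.46%). RefSeq's table lists 1 start for Robo1, which lies 635631 bases inside the annotated gene, so that it is an internal start and not the gene's 5' end. The Robo1 window holds an E-box and neither of the other motifs, and the windows of Slit2, Slit3 and Robo2 hold none of the 3. A match is a description of the letters and not evidence of binding. The windows were rich in CG dinucleotides, with a median of 20 against 7 in all windows, and in G and C bases, with a median of 64.7% against 52.7%.
Robo1 internal start, chr16:72662899-72663198, plus strand: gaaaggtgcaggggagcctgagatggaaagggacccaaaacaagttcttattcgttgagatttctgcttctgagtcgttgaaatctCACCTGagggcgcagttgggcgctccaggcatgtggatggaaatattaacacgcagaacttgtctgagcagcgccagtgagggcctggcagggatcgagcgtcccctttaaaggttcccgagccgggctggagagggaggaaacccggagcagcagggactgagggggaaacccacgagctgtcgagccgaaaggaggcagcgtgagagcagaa

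Semaphorins were the largest family, with 15 genes, of which 8 spanned 1 or more, 9 had higher and 6 had lower means in TPAC lines, and the median difference was 0.10. Class 3 semaphorins are secreted and signal through neuropilin and plexin complexes. Sema3d had log2 signals of 6.55 in K459 and 5.58 in TCPA18654, against 10.37 in TPC20223 and 5.64 in TPC18645, with a span of 4.79 that was the largest of the 50 genes. Sema3e, the ligand that binds plexin-D1 directly, went the other way, with 8.95 in K459 and 9.78 in TCPA18654, against 7.37 in TPC20223 and 9.94 in TPC18645. Sema3c had 10.42 in K459 and 12.06 in TCPA18654, against 10.09 in TPC20223 and 11.95 in TPC18645. Sema3c was therefore high in TCPA18654 and TPC18645 and low in K459 and TPC20223, the reverse of Robo1. The classic repellent of sensory axons, Sema3a, had 7.92 in K459 and 7.94 in TCPA18654, against 7.71 in TPC20223 and 8.62 in TPC18645. Sema3b and Sema3f, which signals through neuropilin-2, had spans of 0.66 and 0.44. The TPAC minus TPC differences of the 6 class 3 genes ran from -1.94 for Sema3d to 0.71 for Sema3e, and that of Sema3d became 0.42 and that of Sema3e -0.58 without TPC20223.

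Semaphorins of class 4 span the membrane, and 4 of 6 had their lowest value in TPC20223. Sema4a had log2 signals of 7.99 in K459 and 8.67 in TCPA18654, against 6.96 in TPC20223 and 8.63 in TPC18645. Sema4b had 9.98 in K459 and 9.64 in TCPA18654, against 8.44 in TPC20223 and 9.80 in TPC18645, and its log2 difference between TPAC and TPC of 0.69 (standard error 0.53) was 0.01 without TPC20223. With Sema4g, these were the 3 class 4 genes at least 2-fold lower in TPC20223 than in each other line. Sema4d, the ligand of plexin-B1, had 8.10 in K459 and 7.74 in TCPA18654, against 7.44 in TPC20223 and 8.22 in TPC18645, and a second cluster of this gene, not used here, had a span of 0.29. Sema4c, the ligand of plexin-B2, spanned 0.32. Sema4f, which is dim, spanned 0.74 and was highest in TPC20223, unlike the others of its class. Sema5a had 9.63 in K459 and 7.44 in TCPA18654, against 9.07 in TPC20223 and 6.84 in TPC18645, the same division of lines as Robo1. Sema6a, a ligand of class A plexins, had 8.91 in K459 and 7.70 in TCPA18654, against 8.23 in TPC20223 and 7.61 in TPC18645, and Sema7a, which is anchored by a lipid and binds plexin-C1 and integrins, spanned 0.71.

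The promoter windows of Sema3d, the most variable of the genes, and of the upstream start of Sema4b are shown as semaphorins with opposite line patterns. The Sema3d window holds an E-box, and the Sema4b window holds a kB site and no E-box. The second Sema4b start has none of the 3 motifs. Plxnc1, Nrp2, Slit2, Slit3, Robo2, Efna3 and Epha3 were also at least 2-fold higher in TPC20223 than in each other line. Their windows hold none of the 3. Among the genes at least 2-fold lower there, a Sema4a window holds a kB site, and those of Sema3e, Sema4g and Ntn4 hold none. A role of the motifs in the line patterns was not tested.
Sema3d promoter, chr5:12382916-12383215, plus strand: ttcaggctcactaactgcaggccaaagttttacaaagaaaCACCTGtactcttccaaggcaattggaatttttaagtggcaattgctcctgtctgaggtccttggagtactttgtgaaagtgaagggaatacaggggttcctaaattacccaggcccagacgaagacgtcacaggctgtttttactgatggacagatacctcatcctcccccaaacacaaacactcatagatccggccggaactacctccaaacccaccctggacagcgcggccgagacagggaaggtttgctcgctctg
Sema4b promoter, chr7:80186620-80186919, plus strand: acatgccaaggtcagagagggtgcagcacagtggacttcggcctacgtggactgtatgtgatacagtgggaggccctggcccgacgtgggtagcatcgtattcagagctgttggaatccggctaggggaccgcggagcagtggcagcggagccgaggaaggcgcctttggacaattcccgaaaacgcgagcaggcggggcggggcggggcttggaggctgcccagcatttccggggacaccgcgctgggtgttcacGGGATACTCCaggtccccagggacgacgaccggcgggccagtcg

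Plexins are the signalling receptors of semaphorins, and 4 of 7 spanned 1 or more, with 2 higher and 5 lower means in TPAC lines. Plxnc1, the receptor of Sema7a and a dim gene over the 4 lines, had log2 signals of 5.30 in K459 and 5.52 in TCPA18654, against 8.58 in TPC20223 and 5.40 in TPC18645. Plxnb1 had 8.65 in K459 and 9.67 in TCPA18654, against 8.25 in TPC20223 and 10.01 in TPC18645, the division of lines seen for Sema3c. Plxna3 had 8.25 in K459 and 8.07 in TCPA18654, against 9.24 in TPC20223 and 8.26 in TPC18645. K459 and TPC18645 thus differed by 0.01 for Plxna3, although the genotypes did not overlap. Plxnb2, with 11.89 in K459 and 12.18 in TCPA18654, against 12.02 in TPC20223 and 12.16 in TPC18645, and Plxna2, with a span of 0.39, were among the steadiest genes. Plxnd1 had 9.38 in K459 and 10.13 in TCPA18654, against 9.86 in TPC20223 and 10.32 in TPC18645. The Plxna3 window lies around a start 776 bases inside the annotated gene. It is shown because its gene was lower in both TPAC lines and because it holds a kB site. The windows of Sema4g, Ephb6 and Efna3, whose genotypes did not overlap either, hold no kB site, and Plxna1 has no window. Other measured genes with a kB site in a window were Sema4a, Sema4b, Sema4c and Ephb1. Their log2 differences between TPAC and TPC were 0.54, 0.69, -0.01 and 0.14, and none was called. A role of the site was not tested. The Plxna3 difference of -0.59 (standard error 0.38) was not called (limma adjusted p = 0.989) and was -0.10 without TPC20223.
Plxna3 internal start, chrX:74328816-74329115, plus strand: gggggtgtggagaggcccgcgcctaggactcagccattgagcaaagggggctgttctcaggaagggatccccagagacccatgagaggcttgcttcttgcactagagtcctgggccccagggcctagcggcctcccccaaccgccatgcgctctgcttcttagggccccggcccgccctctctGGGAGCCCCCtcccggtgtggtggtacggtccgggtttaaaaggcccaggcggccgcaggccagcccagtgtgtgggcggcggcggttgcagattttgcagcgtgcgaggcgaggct

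Neuropilins are coreceptors that bind class 3 semaphorins and vascular endothelial growth factors. Nrp2 had log2 signals of 8.58 in K459 and 9.24 in TCPA18654, against 11.37 in TPC20223 and 9.18 in TPC18645. It was high in TPC20223 alone, and its log2 difference between TPAC and TPC of -1.36 (standard error 0.84) was -0.27 without that line. Nrp1 had 9.02 in K459 and 10.07 in TCPA18654, against 9.30 in TPC20223 and 10.17 in TPC18645, so the 2 neuropilins did not share a line pattern.

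Netrin-1 attracts axons through Dcc and repels them through Unc5 receptors, and netrin-4 is a basement membrane protein. Ntn4 had log2 signals of 8.02 in K459 and 9.15 in TCPA18654, against 6.91 in TPC20223 and 9.44 in TPC18645, a span of 2.53. Ntn1, with 9.04 in K459 and 8.61 in TCPA18654, against 8.98 in TPC20223 and 8.85 in TPC18645, varied little, as did its receptors Unc5b (span 0.45) and Neo1 (neogenin, span 0.30). Dcc, a dim gene, had 6.05 in K459 and 6.15 in TCPA18654, against 7.09 in TPC20223 and 6.11 in TPC18645. Its log2 difference of -0.50 became -0.01 without TPC20223.

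Ephrins and Eph receptors, pass signals between touching cells, and 2 of 7 ephrins and 2 of 9 measured Eph receptors spanned 1 or more. Efna3, one of the ephrins held by a lipid anchor, had log2 signals of 7.16 in K459 and 7.18 in TCPA18654, against 9.09 in TPC20223 and 7.34 in TPC18645. Its log2 difference of -1.04 (standard error 0.65) was -0.17 without TPC20223. Efnb1, a membrane-spanning ephrin, had 9.18 in K459 and 8.59 in TCPA18654, against 9.74 in TPC20223 and 8.76 in TPC18645. Among the receptors, Epha3, which is dim over the 4 lines, had 5.36 in K459 and 5.47 in TCPA18654, against 8.30 in TPC20223 and 5.42 in TPC18645. The other lines lay close together for Epha3 and TPC20223 stood alone. Ephb3 had 8.29 in K459 and 9.06 in TCPA18654, against 8.96 in TPC20223 and 9.43 in TPC18645, and was lowest in K459. Epha2, an Eph receptor common in carcinomas, had 10.50 in K459 and 10.73 in TCPA18654, against 9.89 in TPC20223 and 10.69 in TPC18645, with the lowest value in TPC20223. The remaining ephrins, Efna1, Efna4, Efna5 and Efnb3, had spans of 0.77, 0.49, 0.35 and 0.27. The remaining receptors, Epha1, Epha4, Epha7, Ephb1 and Ephb4 (the partner of ephrin-B2 on veins), had spans of 0.36, 0.65, 0.79, 0.36 and 0.61, with Epha1 and Ephb1 dim.

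**Figure D3:**
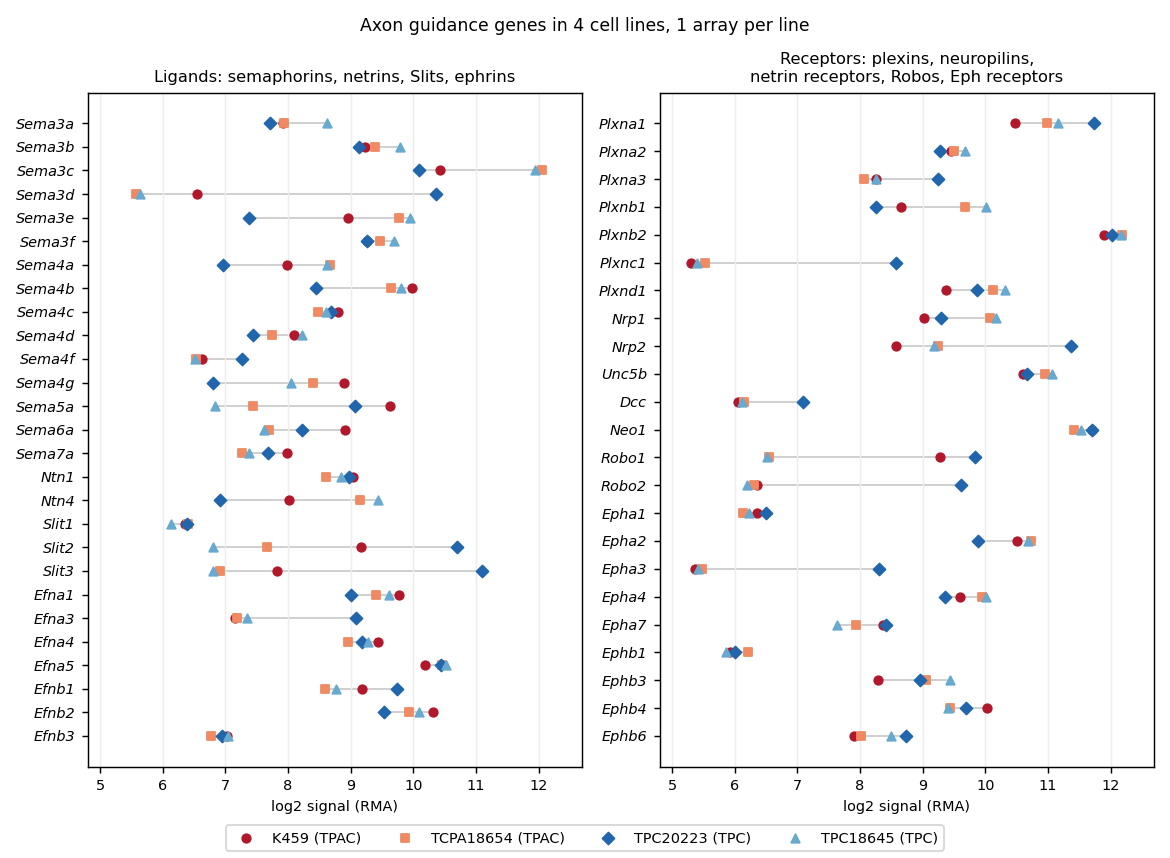
Log2 signal of each measured ligand (left) and receptor (right) in the TPAC lines K459 and TCPA18654 and the TPC lines TPC20223 and TPC18645; 1 point is 1 array and the grey line joins the lowest and the highest. TPC20223 (dark blue) lies apart for Sema3d, Slit3, Robo2, Plxnc1 and Epha3, and TCPA18654 and TPC18645 lie close together for most genes; signals of different genes are not comparable.

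The line patterns can be counted over the 50 genes. In TPC20223, 8 genes were at least 2-fold above each other line (Sema3d, Plxnc1, Nrp2, Slit2, Slit3, Robo2, Efna3 and Epha3), where 4.25% of all genes were, and 5 were at least 2-fold below (Sema3e, Sema4a, Sema4b, Sema4g and Ntn4), where 2.95% of all genes were. With dim genes left out, 6 and 5 of 42 guidance genes remained, where 4.86% and 4.77% of all such genes were above and below. The raised genes were a mixture of ligands and receptors, and the lowered ones were all ligands. In no other line was a guidance gene at least 2-fold above or below each other line. Above, 0 of 50 lay in K459 (0.988% of all genes), TCPA18654 (0.0201%) and TPC18645 (0.0251%). Below, 0 lay in K459 (0.331%), TCPA18654 (0.0602%) and TPC18645 (0.0401%). At shares of all genes this low, 0 of 50 does not set the guidance genes apart. TPC20223 is also the line with low epithelial markers. Its summed fibroblast marker signal was higher too, but only 3 of the 9 fibroblast markers were at least 2-fold above each other line. The part of both marker lists in the guidance gene values was not tested.

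A second division, chosen after the values were seen, put K459 with TPC20223. Sema5a, Slit2 and Robo1 were at least 2-fold higher in both of these lines than in both TCPA18654 and TPC18645, where 0.978% of all genes were. Sema3c, Plxnb1 and Ntn4 were at least 2-fold higher in both TCPA18654 and TPC18645 than in both K459 and TPC20223, where 0.647% of all genes were. Between the TPAC lines, Robo1 was higher by 2.73 in K459 than in TCPA18654, Sema5a by 2.19 and Slit2 by 1.5. Between the TPC lines, Robo1 was higher by 3.32 in TPC20223 than in TPC18645, Sema5a by 2.23 and Slit2 by 3.89. The genes were picked by this division, so both differences had to be at least 2-fold and do not replicate each other. The fibroblast markers did not follow this division as a list: of 9, only the collagen genes Col1a1 and Col1a2 were at least 2-fold higher in K459 and TPC20223 than in the other lines, and Dcn (decorin) was at least 2-fold lower in them. Col1a1 and Col1a2 had 10.36 and 9.76 in K459 and 8.72 and 7.69 in TCPA18654, against 13.02 and 10.95 in TPC20223 and 8.53 and 7.64 in TPC18645. Dcn had 8.57 in K459 and 10.99 in TCPA18654, against 9.35 in TPC20223 and 11.03 in TPC18645. Thy1 was at least 2-fold higher in K459 alone. Of 8 mesenchymal markers, 1 followed the division in the direction of the collagens, Twist1. It had 8.32 in K459 and 6.67 in TCPA18654, against 9.11 in TPC20223 and 7.01 in TPC18645. Of the epithelial markers 0 of 10 divided the lines in either of these ways, and K459 and TPC20223 were the highest and the lowest line in their median, with 11.88 in K459 and 10.21 in TCPA18654, against 6.64 in TPC20223 and 9.79 in TPC18645. The part of these markers in the guidance gene values was not tested.

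**Figure D4:**
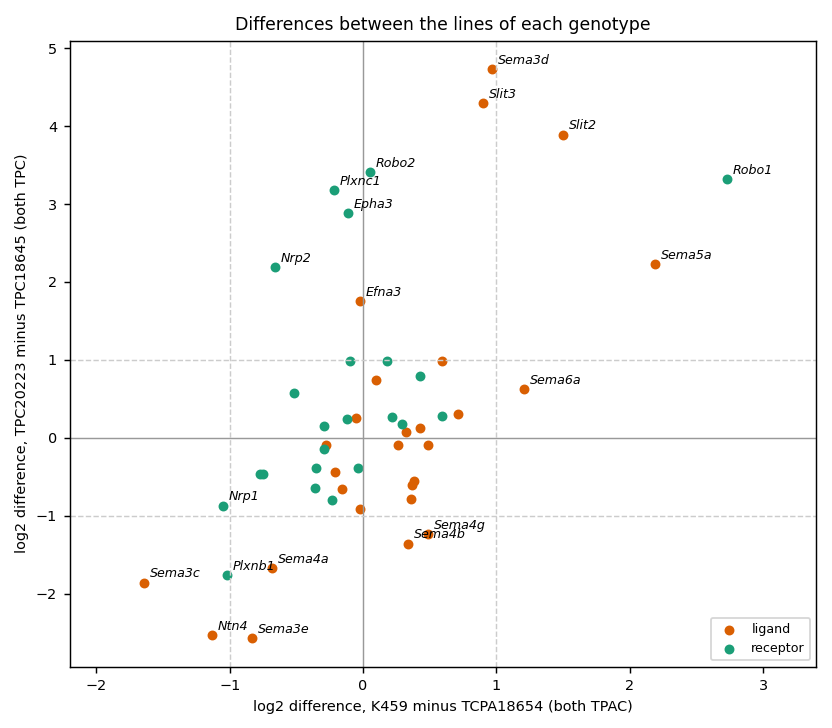
Log2 difference of each measured guidance gene between the TPAC lines (K459 minus TCPA18654, horizontal) and between the TPC lines (TPC20223 minus TPC18645, vertical); orange points are ligands, green points receptors, and dashed lines mark 2-fold. Robo1, Sema5a and Slit2 lie at the upper right and Sema3c, Ntn4, Plxnb1 at the lower left, and Sema3d and Slit3 lie highest with 4.73 and 4.29.

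Other genes of the same families and the genes that carry their signals gave no called difference either. Of 28 further family genes 27 were measured, of which 12 were higher and 15 lower in TPAC lines, 0 were called by limma and 0 had an unadjusted p under 0.05. In this list 7 of 27 spanned 1 or more (25.9%). The netrin receptor gene Unc5c had log2 signals of 7.34 in K459 and 6.22 in TCPA18654, against 9.16 in TPC20223 and 6.39 in TPC18645, and Flrt3, a membrane protein that binds Unc5 and Robo receptors, had 10.23 in K459 and 7.89 in TCPA18654, against 9.59 in TPC20223 and 7.89 in TPC18645. Both were higher in K459 and TPC20223 than in the other pair of lines. Of 52 coreceptors and intracellular mediators 49 were measured, with 24 higher and 25 lower in TPAC lines, 0 called and 16 (32.7%) with a span of 1 or more. The exchange factor gene Tiam1, which activates Rac, was the only one of them with an unadjusted p under 0.05, with 7.83 in K459 and 7.73 in TCPA18654, against 8.46 in TPC20223 and 8.14 in TPC18645 (limma, adjusted p = 0.989). L1cam, a neural adhesion molecule and coreceptor of Nrp1, had 6.58 in K459 and 6.39 in TCPA18654, against 9.39 in TPC20223 and 6.42 in TPC18645. Chn1 and Chn2, a pair of chimaerins that switch off Rac, went opposite ways: Chn1 had 6.93 in K459 and 6.82 in TCPA18654, against 9.30 in TPC20223 and 6.22 in TPC18645. Chn2 had 10.58 in K459 and 10.72 in TCPA18654, against 8.11 in TPC20223 and 10.77 in TPC18645. Adam10, a protease that sheds ephrins, had 11.17 in K459 and 11.48 in TCPA18654, against 10.13 in TPC20223 and 11.48 in TPC18645, and was lowest in TPC20223.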

How the data were processed

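RNA of 4 cell lines was hybridised to Affymetrix Mouse Gene ST1.0 arrays, 1 array per line. The deposited log2 signals were produced by the authors with RMA (background correction, quantile normalisation between arrays and a summary of probes per cluster), in Affymetrix Expression Console 1.4 as named in the submitters' processing notes. Filters and array batches are not given in the sources used here. Of 28941 clusters, 21789 had 1 symbol in the platform annotation, 1621 several and 5531 none, and clusters with several were not named. Entrez numbers of 21698 were found in RefSeq's genes of GRCm38.p6, and 0 symbols changed. The cluster of highest mean stood for each of 19938 genes. TPAC and TPC lines, grouped by genotype label, entered 1 two-sided limma fit (version 3.58.1 in R 4.3.3), and p-values were adjusted over all genes after Benjamini and Hochberg. They rest on the spread between the lines of a genotype. With 1 array per line, differences between lines and technical spread cannot be told apart. The fit was tested on simulated data whose spread was capped below that of most genes here. That test does not show which differences could be detected in these data. Promoters came from RefSeq. The number of arrays limits the precision.

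Values in all lines were given for members that span a log2 signal of 1 or more and for the 3 of smallest p in each direction; others were named where a family is described, and genes beyond this were chosen after their values were seen. Members and lists were chosen with earlier results of these data known. Alternatives were cyclic loess, arrays set to 1 median, averaged clusters, dim genes left out, an intensity trend, other thresholds, the methods' test and leaving out each line; with 1 line left out, limma takes the lone line of a group to vary like the other group.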

Additional observations from a re-analysis of the deposited data

How the results depend on the processing

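No guidance gene was called by limma with cyclic loess, with arrays set to 1 median, with clusters of a gene averaged, with dim genes left out, with an intensity trend, no log2 limit, an adjusted p of 0.1 or with any 1 line left out. The methods' t-test with the same log2 limit called 1 guidance gene (Ephb6) and 15 of all genes before adjustment and 0 after it, and limma without adjustment, added after seeing the data, called 1 (Ephb6) and 84. The median difference was -0.10 to -0.06 under other scalings and gene choices and -0.15 to -0.05 with 1 line left out. With the mean of a gene's clusters, 2 guidance genes rather than 1 had both TPAC lines above both TPC lines (13.6% of all genes), and with cyclic loess 6 rather than 4 had both below (14.4% of all genes). With 1 line left out, a lone line is set against 2, and groups part more readily: 7 to 15 of 50 lay above, where 26.5% to 43.2% of all genes did, and 13 to 19 below, where 25.9% to 35% did.

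At 1.5-fold and 4-fold in place of 2-fold, 22 and 3 guidance genes were apart between K459 and TPC18645, 24 and 7 between K459 and TPC20223, 26 and 10 between TCPA18654 and TPC20223, 3 and 0 between TCPA18654 and TPC18645, 18 and 2 between K459 and TCPA18654, and 30 and 11 between TPC20223 and TPC18645. Counts over all genes at these limits are not given, so these are not set against a background.

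With 1 line left out, the difference changed direction under at least 1 omission for 38 of the 50 guidance genes. No count over all genes stands beside this, so it is not read as a trait of the group. Among the 38 were 15 of the 26 chosen by span or p. None of these 26 changed direction under the scalings. For the 15, the lowest and highest differences were -0.71 and 1.15 for Sema3c, -4.30 and 0.42 for Sema3d, -0.58 and 2.0 for Sema3e, -0.30 and 1.37 for Sema4a, -0.54 and 1.70 for Sema5a, -0.22 and 0.99 for Sema6a, -0.85 and 0.91 for Plxnb1, -3.17 and 0.01 for Plxnc1, -0.72 and 0.33 for Nrp1, -0.86 and 1.68 for Ntn4, -2.28 and 1.61 for Slit2, -3.73 and 0.56 for Slit3, -1.93 and 1.4 for Robo1, -3.29 and 0.12 for Robo2, and -0.86 and 0.12 for Efnb1. The cause was not tested. No paired analysis was run because the sources name no pairing of lines across genotypes. With 2 lines per genotype, a difference that was not called is not shown to be absent: the standard errors of the 50 genes had a median of 0.35 and reached 1.77.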

Other observations

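The remaining family genes with a span of 1 or more had these log2 signals. Plxna4, a plexin that pairs with Nrp1, had 7.49 in K459 and 7.04 in TCPA18654, against 8.52 in TPC20223 and 6.95 in TPC18645. Unc5a, a netrin receptor gene, had 6.86 in both K459 and TCPA18654, against 8.49 in TPC20223 and 6.70 in TPC18645. Flrt2, a ligand of Unc5 receptors, had 8.02 in K459 and 7.54 in TCPA18654, against 9.27 in TPC20223 and 7.70 in TPC18645. All 3 were highest in TPC20223. Efna2, a lipid-anchored ephrin, had 8.66 in K459 and 7.65 in TCPA18654, against 9.07 in TPC20223 and 7.88 in TPC18645. Sema6d, a membrane-bound semaphorin, had 9.0 in K459 and 7.91 in TCPA18654, against 8.19 in TPC20223 and 8.28 in TPC18645, and was highest in K459.

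Mediators of guidance signals varied likewise. Srgap3, a Slit-Robo GTPase-activating protein, had 7.53 in K459 and 7.52 in TCPA18654, against 9.29 in TPC20223 and 7.75 in TPC18645, whereas Srgap1 of the same family had 10.06 in K459 and 10.35 in TCPA18654, against 9.17 in TPC20223 and 10.43 in TPC18645. Enah, an actin regulator, had 9.99 in K459 and 9.66 in TCPA18654, against 11.40 in TPC20223 and 9.37 in TPC18645. Met, the receptor of hepatocyte growth factor, which associates with plexin-B1, had 10.13 in K459 and 10.51 in TCPA18654, against 9.36 in TPC20223 and 10.51 in TPC18645. Rnd1, a GTPase that binds plexins, had 7.16 in K459 and 9.23 in TCPA18654, against 8.25 in TPC20223 and 9.03 in TPC18645, and was lowest in K459. None of these genes was called by limma between TPAC and TPC lines. A second cluster of Ephb1, not used in the comparison, had 6.18 in K459 and 5.96 in TCPA18654, against 5.64 in TPC20223 and 5.75 in TPC18645, a difference of 0.38 between TPAC and TPC against 0.14 for the cluster used.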
